A study of Mus musculus with 20 samples.

Results

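The genes described here build the motile cilia of ependymal cells, the epithelium that lines the brain ventricles, and they were followed in tissue punches of 2 mouse brain regions. Members were the protein-coding genes whose symbols begin with Cfap, Dnah, Dnai, Dnaaf, Rsph, Drc, Tekt or Spag, together with Foxj1, Tmem212 and Ccdc153. The rule found 88 genes among 57180 identifiers in the count table. It used symbols alone and no measured value. By general knowledge, 74 of the 88 have a role in the axoneme, in its assembly or in the ciliated cell, 8 are widely expressed and 6 are sperm-associated antigens known from other parts of the cell. No count was recorded in any library for Cfap97d1, Dnaaf6, Spag11a and Spag11b.

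Poly(A) RNA was sequenced from the paraventricular thalamic nucleus (PVT), a midline nucleus beside the third ventricle, and from the posterior insular cortex (pIC). Mice labelled PDN, for painful diabetic neuropathy, had received 200 mg/kg streptozotocin (STZ) by intraperitoneal injection, a compound that kills insulin-producing beta cells. Control mice had received vehicle, and all tissue was labelled week 7. Each region had 4 control and 6 STZ libraries, 20 in all. The labels used here name no strain, sex, age or genetic change. STZ diabetes is a chemical model. A punch takes whatever cells lie in it, so the share of ependyma, choroid plexus and other cells can differ from punch to punch. Which of these cells the RNA of the members came from was not tested. Fewer ciliated cells and less RNA per ciliated cell cannot be told apart in such bulk samples. No label says that libraries of a group came from separate animals, so p-values measure the spread between these libraries. The same mouse labels (C and P with a number) occur in both regions, which may mean that both punches came from 1 mouse, and the libraries were treated as independent.

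A motile cilium is a ring of doublet microtubules around a central pair. Dynein arms on the doublets slide them past each other, while radial spokes, the nexin-dynein regulatory complex and the central pair regulate the sliding. Foxj1 is the transcription factor that switches on this programme in multiciliated cells, and RFX factors bind X-box elements in many cilia promoters. Ependymal cilia move cerebrospinal fluid along the ventricle wall. Several members, the tektins and SPAG genes among them, were first studied in sperm, whose tail has the same core.

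Promoter sequences show one element that many members carry. RefSeq start sites (GRCm38.p6, 250 bases before to 50 after each start) were found for 72 members, 10 of them among the 15 genes that fell in PVT below. GTTGCC, a core of the X-box, was searched on both strands. It occurred in 28 of 68 promoters (41.18%) of members with an axonemal role and in 5 of 12 (41.67%) of the other members, against 12.51% of all 32851 promoters. Among 13 promoters of members that fell, 4 (30.77%) held it. The forkhead letters TGTTTAC were in 4.41% of the axonemal promoters and 3.65% of all promoters. The windows below come from the 4 members that fell and held it and from Tekt4, the tektin that rose in pIC, and they are shown because the core can be read in them. Capitals mark GTTGCC or, for the other strand, GGCAAC. Each is printed in the direction of the gene. The first 4 lie before the start, and that of Tekt4 lies after it.
Ccdc153 (chr9:44240513-44240572, plus strand): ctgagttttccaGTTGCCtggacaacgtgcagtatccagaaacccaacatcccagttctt
Cfap161 (chr7:83794858-83794917, minus strand): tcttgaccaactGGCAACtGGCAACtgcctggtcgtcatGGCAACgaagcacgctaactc
Dnah10 (chr5:124725025-124725084, plus strand): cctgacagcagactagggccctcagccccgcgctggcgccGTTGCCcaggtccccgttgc
Tekt1 (chr11:72361883-72361942, minus strand): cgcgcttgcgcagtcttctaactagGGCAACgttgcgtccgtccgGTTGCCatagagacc
Tekt4 (chr17:25471586-25471615, plus strand): caatgttccttaGGCAACcaggaaccttgc
Cfap161 showed 3 copies within 60 bases and Tekt1 showed 1 on each strand. A match is only these letters in this window, and the share was as high in members outside the axoneme.

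The 20 libraries held between 17.9 M and 25.5 M counts, with overlap between all groups. PVT control replicate 4 stood apart in pituitary genes, at 6.93 mean log2 CPM (CPM being the count scaled by library size) against at most −1.90 in the other PVT libraries. In pIC, STZ replicate 3 stood apart in choroid plexus genes (1.34, against at most 0.21 in the other pIC libraries). Control replicate 4 of pIC stood apart in pituitary genes (−0.618, against at most −2.225 in the other pIC libraries). It carries the same mouse label as PVT control replicate 4. Thalamic neuron genes ranged from 4.74 to 7.18 mean log2 CPM in PVT and from 3.05 to 3.75 in pIC. In PVT the lowest 2 of each group in these genes were control replicates 2 and 4 and STZ replicates 1 and 2. Sperm genes with no known role in ependyma lay near the detection floor, and 1 of 10 was tested in PVT.

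The first comparison asked where the members are expressed without diabetes, PVT against pIC of control mice (n = 4 libraries each). It was tested against a minimum fold of 2, with adjusted p under 0.05 over all genes as a call (edgeR, glmTreat). Of 79 members tested, 50 were higher in PVT and 0 were lower, beside 4.7% of all 16614 genes higher and 0.554% lower. At an unadjusted p under 0.05, 54 members were higher and 1 lower (all genes 7.28% and 2.59%), and DESeq2 called 44 higher and 0 lower (all genes 3.93% and 0.379%). Of the 79, 26 were too low to be tested in pIC alone and entered only through their PVT level, a filter that favours a difference, and 25 of them were among the 50. Of the 53 that were also tested in pIC alone, 25 were higher and 0 lower, with a median difference of 1.40 on the log2 scale, and the median of all genes was 0.025. Among members with an axonemal role, 49 of 67 were higher. The only higher gene among the 12 others was Cfap97d2, which general knowledge had placed with the widely expressed genes. It was among the 26 not tested in pIC alone.

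Foxj1, the master regulator, had 42.3, 30.2, 31.8 and 37.7 CPM in the PVT of control replicates 1 to 4. In pIC of control mice the same gene had 3.23, 4.59, 4.37 and 2.45 CPM. The regions were thus far apart, and the fitted difference was 3.29 (SE 0.191, adjusted p = 1.13e-05). Tmem212, an ependymal membrane protein, had 10, 9.54, 10.2 and 10.7 CPM in PVT and between 0 and 0.245 CPM in pIC (difference 6.85, SE 0.409, adjusted p = 4.64e-06). Ccdc153, a coiled-coil ependymal marker, had a mean of 20.7 CPM in PVT and at most 0.449 CPM in a pIC library (difference 6.67, adjusted p = 2.35e-05). Drc7, a subunit of the nexin-dynein regulatory complex, had 15.1 to 23.2 CPM in PVT and 0.277 to 0.404 CPM in pIC (difference 5.67, adjusted p = 2.48e-07). Foxj1 was also tested in pIC alone. Tmem212, Ccdc153 and Drc7 were among the 26 members that entered only through their PVT level, which favours a difference.

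Some axonemal genes were nearly unseen in pIC of control mice. Spag17, a central pair protein, had 182 counts over the 4 PVT control libraries and 1 over the 4 pIC control libraries, a ratio of 170 (exact 95% interval 30.1 to 6750, counting error only). Dnah3, an inner-arm dynein heavy chain, had 271 counts against 2 (ratio 126, interval 34.7 to 1050). Cfap221, a central apparatus protein, had 152 against 1 (ratio 142, interval 25.1 to 5640). These intervals are wide because the pIC counts are so few. All 3 genes passed the fitted test (adjusted p = 1.28e-05, 6.12e-06 and 3.32e-05). They are among the 26 members that entered only through their PVT level, a filter that favours a difference, so these p-values add no support.

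Other members had about equal levels in both regions or were lower in PVT without passing the minimum fold. Drc1, a further subunit of the regulatory complex, had 13.5 to 17.7 CPM in PVT and 11.9 to 14.7 CPM in pIC of control mice (difference 0.20, SE 0.110). Cfap74, a central apparatus protein, had 8.9 to 11.6 CPM in PVT and 8.68 to 12.8 CPM in pIC (difference −0.09, SE 0.134). Cfap20dc was at −0.38 (SE 0.126) and Spag5, a spindle protein, at −0.67 (SE 0.153), neither past the minimum fold. Tested against no change, Cfap20dc, Spag5 and Spag6 were lower in PVT. The lowest difference was that of Spag6 (−2.70, SE 0.685, adjusted p = 0.14), with 0, 1.24, 0.936 and 0.147 CPM in PVT and 2.36 to 4.88 CPM in pIC. Its near-identical copy Spag6l went the other way (10.3 to 14.3 CPM in PVT, 4.13 to 5.15 CPM in pIC, difference 1.45, adjusted p = 0.0129). No source used here says how reads matching both copies were counted, so both values are uncertain. The same holds for Dnah7a, Dnah7b and Dnah7c, for Rsph3a and Rsph3b, for Dnaaf6b, and for Spag17 and Dnah2, which have antisense genes.

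**Figure D1:**
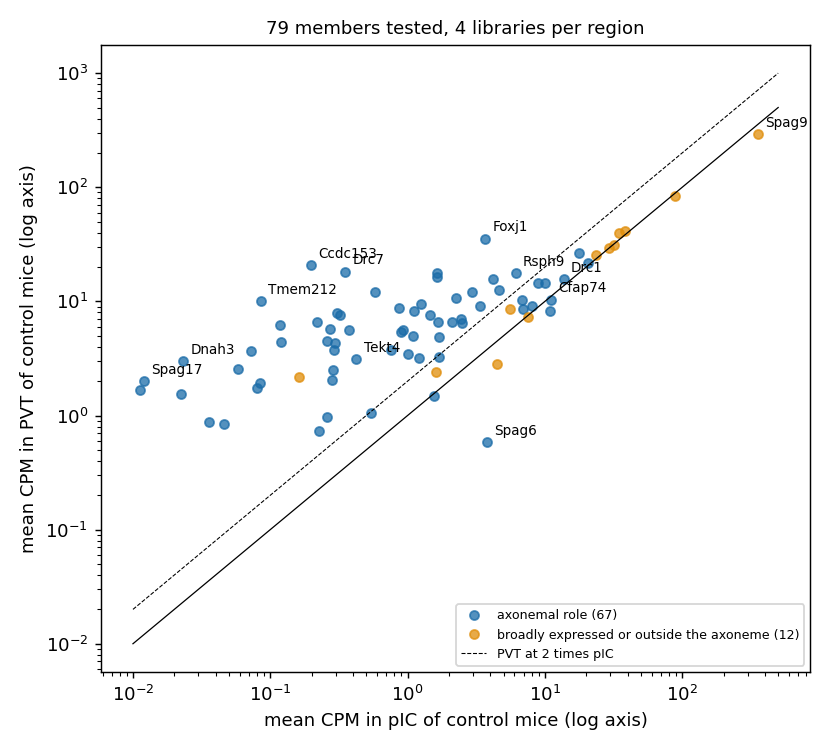
Mean CPM of the 79 members tested, in pIC (horizontal, log axis) and PVT (vertical, log axis) of control mice, 4 libraries each; each point is a gene, the solid line marks equal levels and the dashed line PVT at 2 times pIC. Most axonemal members lie above the dashed line, the broadly expressed and non-axonemal ones lie near the solid line except Cfap97d2 (2.19 CPM in PVT, 0.161 CPM in pIC), and Spag6 lies below it.

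Relative to the length covered by all annotated exons of a gene, Cfap36 and Spag7 were the most abundant members in the PVT of control mice. Cfap36, a widely expressed one, was at 30.7 and Spag7, an antigen outside the axoneme, at 27.9 CPM per kilobase. The highest with an axonemal or regulatory role were Tmem212 at 14.1, Foxj1 at 13.5, Rsph1 at 12.9 and Rsph9 at 11 CPM per kilobase, the last pair being radial spoke head proteins. Of the 74 members with an axonemal role, 62 had a mean of at least 1 CPM in PVT control and 33 in pIC control. Their median level was 5.575 CPM in PVT control, 3.92 CPM in PVT STZ, 0.67 CPM in pIC control and 0.798 CPM in pIC STZ.

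The second comparison asked whether the members changed in the PVT of STZ mice (6 STZ against 4 control libraries). Some cilia genes fell and no member rose, and most members did not pass the test. Of 82 members tested, 15 were lower and 0 higher by edgeR's quasi-likelihood test, beside 1.59% of all 17076 genes lower and 0.474% higher. DESeq2 called 23 lower and 0 higher (all genes 3.23% and 2.07%), and at an unadjusted p under 0.05 the edgeR test had 50 lower and 3 higher (all genes 10.2% and 7.55%). The fold change was negative for 70 of the 82, and the median was −0.44 on the log2 scale against 0.004 for all genes tested. In 22 members every STZ library lay below every control library, beside 3.91% of all genes. In 0 members every STZ library lay above, beside 2.28% of all genes. All 15 genes called were among the 70 tested members with an axonemal role, whose median was −0.47. Rsph6a and Tekt3 were too low to be tested, as were the 4 genes with no count.

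The number called changed with the libraries and covariates in the fit. With 1 library left out it was 3 (control replicate 1 or 4), 4 (STZ replicate 4), 6 (control replicate 3 or STZ replicate 1), 7 (STZ replicate 2 or 5), 8 (STZ replicate 3) or 14 (control replicate 2 or STZ replicate 6). It was 1 with the choroid plexus score as a covariate and 0 with the oligodendrocyte score. It was 0 without the 4 libraries named above, the 2 of each group lowest in thalamus genes. In these fits 66, 18 and 35 of all genes were called. The oligodendrocyte score did not overlap between control and STZ libraries, so that fit cannot tell it apart from treatment. Dnaaf3, Rsph9 and Tmem212 passed in each of the 10 fits that left out 1 library. Over all 18 alternatives their log2 fold changes were −1.08 to −0.90 for Dnaaf3, −0.67 to −0.54 for Rsph9 and −0.77 to −0.54 for Tmem212, while Foxj1 was at −0.68 to −0.37. Over the same 18, Cfap157 lost its call in 16, Drc3 in 13 and Tekt1 in 12. Foxj1, Ccdc153, Rsph1 and Cfap65 each lost it in 11, Cfap43 and Dnah10 in 10 and Cfap126 in 6.

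**Figure D2:**
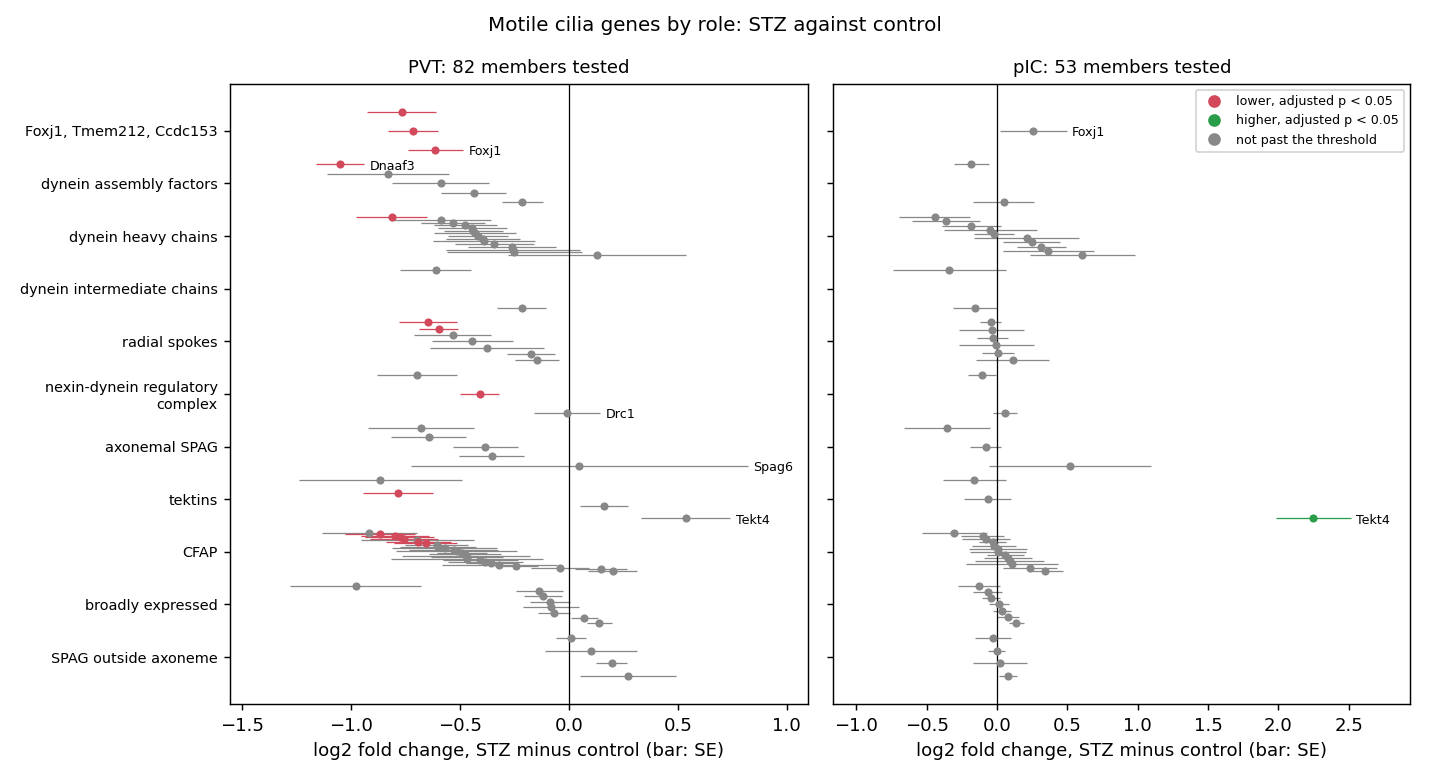
Log2 fold change (STZ minus control, with SE) of each tested member in PVT (left, 82 genes) and pIC (right, 53 genes), arranged by role; red points are lower and green points higher at an adjusted p under 0.05, grey points did not pass. In PVT most axonemal members lie left of 0, and in pIC the only coloured point is Tekt4.

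Among the regulator and the ependyma markers, all 3 fell. Foxj1 had 42.3, 30.2, 31.8 and 37.7 CPM in control replicates 1 to 4, and 21.4, 17.8, 26.7, 25.2, 22.2 and 26.1 CPM in STZ replicates 1 to 6. Every STZ library was below every control library. The mean went from 35.5 ± 5.54 (SD, n = 4) to 23.3 ± 3.40 CPM (SD, n = 6), a change of −0.61 (SE 0.127, adjusted p = 0.033). Tmem212 had 10, 9.54, 10.2 and 10.7 CPM in control and 5.83, 5.43, 6.04, 7.23, 5.12 and 7.31 CPM in STZ libraries, again with no overlap (−0.715, SE 0.113, adjusted p = 0.00862). Ccdc153 had 19.3, 16, 22.4 and 24.9 CPM in control and 13, 10.3, 12.4, 13.6, 8.68 and 15.2 CPM in STZ libraries (−0.77, SE 0.160, adjusted p = 0.0351). The highest STZ library and the lowest control library of Ccdc153 were close, at 15.2 and 16 CPM. With 1 library left out, Foxj1 passed in 4 of 10 fits and Ccdc153 in 3 of 10.

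Dynein assembly factors preassemble dynein arms in the cytoplasm before they enter the cilium, and 1 of the 5 tested fell. Dnaaf3, needed for that preassembly, had 4.36, 4.15, 4.15 and 4.48 CPM in control libraries. In STZ libraries it had 1.9, 1.95, 1.99, 2.33, 1.96 and 2.3 CPM. Both groups were tight and far apart, with STZ at 48.4% of control, the largest change among members called (−1.05, SE 0.110, adjusted p = 0.000526). The raw counts behind it were 86 to 122 in control and 43 to 57 in STZ libraries. It was the 1 member that passed with the choroid plexus score as a covariate (−0.98, adjusted p = 0.0234), and with the oligodendrocyte score it did not (−0.90, adjusted p = 0.186). The other 4 all had negative fold changes without passing: Dnaaf6b −0.83 (adjusted p = 0.155), Dnaaf4 −0.44 (adjusted p = 0.161), Dnaaf1 −0.59 (adjusted p = 0.199) and Spag1 −0.21 (adjusted p = 0.27).

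Dynein heavy chains are the motors, and 1 of 15 fell while 14 of 15 had negative fold changes (median −0.42). Dnah10, an inner-arm heavy chain, had 7.36, 5.07, 4.73 and 5.11 CPM in control and 2.83, 2.58, 3.94, 3.02, 3.56 and 3.03 CPM in STZ libraries. The groups did not overlap, and control replicate 1 was well above the other controls (−0.81, SE 0.161, adjusted p = 0.0277, and 0.0793 in the least favourable fit with 1 library left out). Dnah6 (−0.53, adjusted p = 0.0978), Dnah11 (−0.44, adjusted p = 0.127) and Dnah2 (−0.47, adjusted p = 0.127) did not pass. Dnah8 was at 0.13 (SE 0.410), under 1 CPM in every library. Of the outer-arm intermediate chains, Dnaic2 was below control in every STZ library (7.05 to 8.07 against 3.67 to 6.87 CPM, −0.61, adjusted p = 0.0872) and Dnaic1 was at −0.22 (adjusted p = 0.349).

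Radial spokes reach from the doublets toward the central pair, and 2 of 7 tested genes fell. Rsph9 had 19.3, 14.7, 17 and 19.3 CPM in control and 11.6, 11.1, 10.7, 12.4, 11.5 and 12.6 CPM in STZ libraries. The STZ libraries were closely grouped below all controls (−0.60, SE 0.090, adjusted p = 0.00691). Rsph1 had 19.7, 14.9, 16.4 and 19.5 CPM in control and 11.3, 8.92, 13.3, 13.1, 9.17 and 12.1 CPM in STZ libraries (−0.65, SE 0.133, adjusted p = 0.0329). Rsph4a, another spoke head protein, had 13.6 to 18.7 CPM in control and 7.15 to 14.5 CPM in STZ libraries, which overlap (−0.53, adjusted p = 0.149). Rsph10b (−0.44) and Rsph14 (−0.38) did not pass, and the stalk genes Rsph3a and Rsph3b were at −0.15 and −0.17.

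The nexin-dynein regulatory complex links neighbouring doublets, and its 3 members differed in size of change. Drc3 fell by 0.41 (SE 0.091, adjusted p = 0.0465), from 14.5, 14.7, 14 and 14.3 CPM in control to 10.3, 12.1, 11.9, 10.6, 8.76 and 11.4 CPM in STZ libraries. It passed in 1 of 10 fits with a library left out. Drc7 had 15.1 to 23.2 CPM in control and 8.02 to 14 CPM in STZ libraries with no overlap, and missed the threshold (−0.70, SE 0.184, adjusted p = 0.0872). Drc1 was at −0.01 (SE 0.151, adjusted p = 0.985), with 10.8 to 19.2 CPM in STZ libraries on both sides of its controls.

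**Figure D3:**
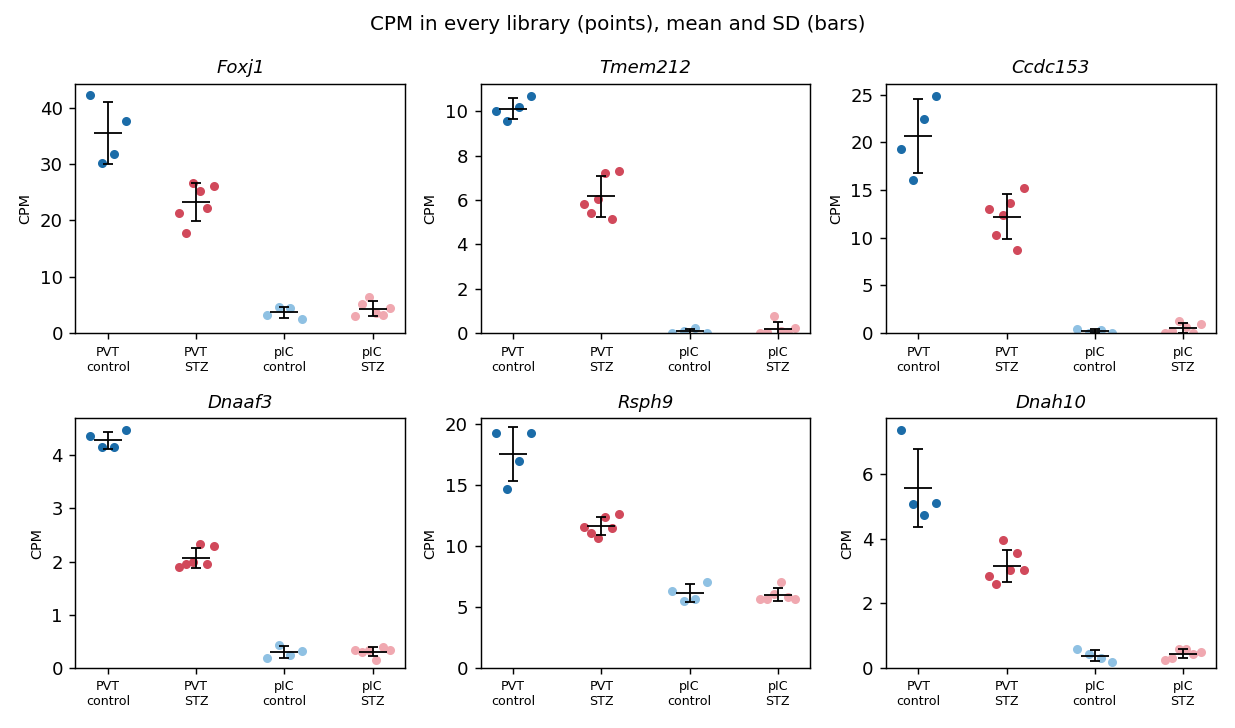
CPM of 6 members in every library (points) with mean and SD (bars), by region and treatment; axes start at 0. In PVT the STZ points of each gene lie below the control points, and both pIC groups lie lower still, with Rsph9 near 6 CPM and Tmem212 near 0.

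The CFAP genes are named for cilia and flagella without a shared structure, and 6 of 26 tested fell, with 24 of 26 fold changes negative (median −0.50). Cfap126 (Flattop), a basal body protein, had 8.47, 5.81, 8.2 and 9.37 CPM in control and 4.74, 3.35, 4.55, 4.78, 3.6 and 5.25 CPM in STZ libraries (−0.86, SE 0.161, adjusted p = 0.0222). Cfap65, known from sperm flagella, had 7.18 to 11.4 CPM in control and 4.62 to 7.11 CPM in STZ libraries (−0.80, adjusted p = 0.0271). The gap between the groups of Cfap65 was small. Cfap43, whose loss causes hydrocephalus, had 6.96 to 9.69 CPM in control and 3.32 to 5.7 CPM in STZ libraries (−0.78, adjusted p = 0.0329). Cfap157, a low-level gene, had 1.72 to 2.07 CPM in control and 0.891 to 1.3 CPM in STZ libraries (−0.75, adjusted p = 0.0329) and passed in none of the 10 fits with 1 library left out, where its adjusted p was 0.0553 to 0.107. Cfap161, a protein of the doublet lumen, and Cfap54, of the central apparatus, were also lower (−0.69, adjusted p = 0.0403, and −0.66, adjusted p = 0.0433), both named after their values were seen. Cfap74 was at −0.04 (SE 0.132), and the positive ones were Cfap300 (0.20) and Cfap20dc (0.15), named for that reason.

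Central pair and other axonemal SPAG genes had no call among 5 by edgeR, while 4 had an unadjusted p under 0.05 and DESeq2 called 1. Spag16, a central pair protein, had 4.89 to 7.81 CPM in control and 2.86 to 4.62 CPM in STZ libraries with no overlap (−0.64, SE 0.172, adjusted p = 0.0872). Spag8 was at −0.68 (adjusted p = 0.181), Spag6l at −0.38 (adjusted p = 0.21) and Spag17 at −0.35 (adjusted p = 0.244). Spag6 varied from 0 to 1.24 CPM within the controls alone, and its value of 0.05 had an SE of 0.773.

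The 8 widely expressed members served as a contrast within the symbol rule. None passed by edgeR or DESeq2, 2 had an unadjusted p under 0.05, 1 in each direction, and the median was −0.08. Cfap97 (0.14, SE 0.058), Cfap20 (−0.12, SE 0.088), Dnaaf5 (−0.14, SE 0.108) and Dnaaf2 (−0.08) all lay close to 0. The exception in size was Cfap97d2 (−0.98, SE 0.301, adjusted p = 0.127). The 4 tested antigens outside the axoneme all had positive fold changes without passing by edgeR or DESeq2, 1 of them at an unadjusted p under 0.05. They were Spag9, a kinase scaffold (0.20), Spag5 (0.27), Spag4, a nuclear envelope protein (0.10), and Spag7 (0.01).

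Tektins are filaments built into the doublet wall, and they were the group whose members differed most. Tekt1 fell by 0.79 (SE 0.160, adjusted p = 0.0313), from 9.39, 7.56, 8.96 and 9.37 CPM in control to 4.33, 3.89, 5.54, 6.13, 4.17 and 6.67 CPM in STZ libraries of PVT. Tekt2 was lower on average but spread widely, with 3.4, 1.11, 2.01 and 3.56 CPM in control and 0.648 to 2.33 CPM in STZ libraries (−0.86, SE 0.375, adjusted p = 0.26). Tekt4 had 3.55, 1.84, 3.34 and 3.67 CPM in control and 3.44, 4.07, 4.05, 5.19, 5.48 and 4.89 CPM in STZ libraries. Its groups overlapped, and the difference did not pass (0.54, SE 0.204, adjusted p = 0.202). Tekt5 had 8.85 to 9.36 CPM in control and 8.78 to 12.6 CPM in STZ libraries (0.16, SE 0.110).

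The third comparison was that of STZ and control in pIC, where most ciliary levels were low. One member, Tekt4, rose, and no other was called. Of 53 members tested 1 was higher and 0 were lower, beside 0.432% of all 16189 genes higher and 0.964% lower. At an unadjusted p under 0.05, 3 members were higher and 0 lower, beside 5.75% and 6.08% of all genes, a share of higher members near the background. DESeq2 also called 1 higher and 0 lower (all genes 1.33% and 1.56%). The median of the members was −0.003 against −0.001 for all genes, with 26 positive and 27 negative.

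Tekt4 had 0.494, 0.29, 0.54 and 0.37 CPM in pIC control replicates 1 to 4, which were 11, 6, 11 and 8 counts. In STZ replicates 1 to 6 it had 2.29, 1.92, 2.61, 2.36, 1.65 and 1.32 CPM, which were 47, 46, 64, 48, 39 and 24 counts. Every STZ library lay above every control library, beside 1.88% of all genes, and Tekt4 was the 1 member of which this was true. The change was 2.25 on the log2 scale (SE 0.267, adjusted p = 0.000397), a 4.75-fold difference. It passed under all 16 alternatives, with values of 2.10 to 2.43 and adjusted p of 3.18e-09 to 0.00392. The other tektins tested in pIC were Tekt1 (−0.16, 0.736 to 0.97 CPM in control and 0.551 to 0.976 CPM in STZ libraries) and Tekt5 (−0.07). Foxj1 in pIC had 2.45 to 4.59 CPM in control and 3.07 to 6.45 CPM in STZ libraries (0.26, SE 0.236, adjusted p = 0.738). STZ replicate 3, the library high in choroid plexus genes, held the highest Foxj1, Ccdc153 (1.31 CPM) and Tmem212 (0.775 CPM) of the pIC libraries. The Tekt4 value without that library and pIC control replicate 4 is among the 16 alternatives.

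**Figure D4:**
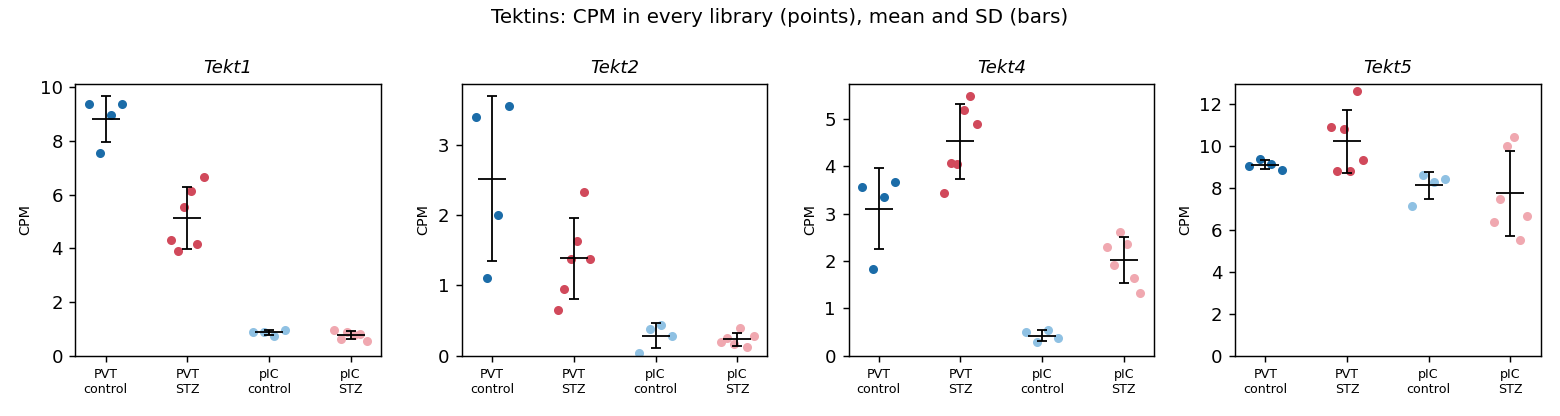
CPM of 4 tektins in every library (points) with mean and SD (bars), by region and treatment; axes start at 0. In PVT the STZ libraries are lower for Tekt1 and not for Tekt4 or Tekt5, and in pIC the 6 STZ libraries of Tekt4, 1.32 to 2.61 CPM, lie above the 4 controls, at most 0.54 CPM.

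Whether the STZ difference itself differed between the regions was tested as an interaction over all 20 libraries. No gene was called in either direction, 0 of 82 members and 0% of all 17427 genes lower and 0% higher (edgeR). At an unadjusted p under 0.05 there were 24 members lower and 0 higher, beside 3.02% of all genes lower and 1% higher. DESeq2 called 4 genes lower (0.023%) and 0 higher, with Tekt4 the 1 member among them. The interaction value is the change in PVT minus that in pIC. Of the 82 members, 29 were too low to be tested in pIC alone, so their values rest on few pIC counts and they entered through PVT. Among the other 53 the value was negative for 43, with a median of −0.29. The smallest p belonged to Tekt4 (−1.72, SE 0.335, adjusted p = 0.216, with DESeq2 0.0209), followed by Dnah3 (−3.29, SE 0.663, adjusted p = 0.262) and Rsph9 (−0.58, SE 0.132, adjusted p = 0.511). Without PVT control replicate 2, Tekt4 passed (adjusted p = 0.0401). The value of Dnah3 rests on 2 counts in all 4 pIC control libraries. The test therefore does not show that the fall of the members differs between PVT and pIC.

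The regions were also compared in STZ mice. Of 79 members tested in PVT against pIC of STZ mice (n = 6 libraries each, minimum fold of 2), 41 were higher and 1 was lower, beside 3.1% of all 16489 genes higher and 0.503% lower. Again 26 of the 79 were not tested in pIC alone, 23 of them among the higher ones, and of the other 53, 18 were higher and 1 lower. The lower one was Spag6, with 0.162 to 1.13 CPM in PVT and 1.1 to 4.11 CPM in pIC. Foxj1 was higher in PVT by 2.41 (SE 0.176, adjusted p = 2.92e-05) and Tmem212, among those 26, by 4.93 (SE 0.519, adjusted p = 0.000129). Tekt4, which was higher in PVT by 2.87 (adjusted p = 0.000551) in control mice, was at 1.15 (SE 0.170, adjusted p = 0.987) in STZ mice. Both p-values are against the minimum fold of 2. Tested against no change, Tekt4 was higher in PVT of STZ mice too. These comparisons share libraries with those of STZ and control, so their values are given side by side and nothing is read from their likeness.

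Cilia genes that the symbol rule did not match were examined in PVT for reference. In a list of 65 other genes of motile cilia, 63 were tested. By edgeR 12 were lower and 0 higher, beside 1.59% and 0.474% of all genes, and the median was −0.55. DESeq2 called 26 lower and 0 higher (all genes 3.23% and 2.07%). Meig1 fell by 0.78 (SE 0.139, adjusted p = 0.0194), Kif9, a ciliary kinesin, by 0.59 (SE 0.107, adjusted p = 0.0199), Cimap3 by 0.90 (adjusted p = 0.0277) and Nme9 by 1.01 (adjusted p = 0.0277). Among 10 tested regulators of multiciliated cells, 8 of them also in that list, 0 were called by edgeR or DESeq2. At an unadjusted p under 0.05 by edgeR, 3 were lower (all genes 10.2%), and the median was −0.16. Rfx2 was at −0.54 (adjusted p = 0.131), Myb at −0.59 (adjusted p = 0.14), Gmnc at −0.72 (adjusted p = 0.279) and Deup1 at −0.65 (adjusted p = 0.341). Rfx3, also used outside multiciliated cells, was at 0.05 with a mean of 36.6 CPM in control and 37.9 CPM in STZ libraries.

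Genes of intraflagellar transport and the primary cilium, which neurons and glia also carry, were a further list. Of 31 tested, 0 were called by edgeR, and the median was 0.03. At an unadjusted p under 0.05, 3 were lower and 6 higher (all genes 10.2% and 7.55%), and DESeq2 called 2 higher and 0 lower (all genes 2.07% and 3.23%). The smallest p were those of Dync2i1 (0.28, adjusted p = 0.0817), Gpr161 (0.33, adjusted p = 0.105), Dync2li1 (−0.27, adjusted p = 0.129) and Kif3a (0.19, adjusted p = 0.179). The difference between this list and the members was not tested.

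Ependyma genes that are no axoneme parts were listed as well. Of 10 tested beside Foxj1, 2 were lower (all genes 1.59%), all 10 fold changes were negative and the median was −0.64. Rarres2, the secreted protein chemerin, had a mean of 24.1 CPM in control and 14.4 CPM in STZ libraries of PVT (adjusted p = 0.00371), and Gm19935 had 17.1 and 10.4 CPM (adjusted p = 0.0245). Mia (−0.90) and Tm4sf1 (−0.38) did not pass (adjusted p = 0.113 and 0.0872).

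Markers of other cells had median fold changes in both directions or near 0 in PVT. By DESeq2, medians were 0.001 for astrocyte, −0.021 for microglia, −0.013 for endothelium and 0.04 for hypothalamic neuron genes. Those of the cortical neuron and tanycyte lists were 0.091 and 0.29. Of 18 choroid plexus genes 0 were called by edgeR, while all 18 fold changes were negative, with a median of −0.68. At an unadjusted p under 0.05, 14 were lower (all genes 10.2%), and DESeq2 called 5 lower (all genes 3.23%). Kcnj13 (−0.99, adjusted p = 0.136), Kcne2 (−0.95, adjusted p = 0.0872), Sostdc1 (−0.95, adjusted p = 0.0517) and Otx2 (−0.72, adjusted p = 0.125) had the smallest p. The summed choroid plexus level was 3207 to 6423 CPM in control and 1492 to 3619 CPM in STZ libraries, and none of the 18 genes was at 0 throughout a group. In pIC the summed choroid plexus level was 96.41 to 125.2 CPM in control and 88.85 to 263.4 CPM in STZ libraries. Of 10 mature oligodendrocyte genes 3 were lower (Mog, Cnp and Opalin), beside 1.59% of all genes, and 6 by DESeq2 (all genes 3.23%). All 10 fold changes were negative, and 6 genes had no overlap (all genes 3.91% in this direction). Their summed level was 8094 to 9982 CPM in control and 6563 to 9182 CPM in STZ libraries, which overlap, while their mean log2 CPM did not (8.094 to 8.319 and 7.548 to 8.004). In the other direction, all 10 striatal neuron genes had positive fold changes (median 0.65), with STZ replicates 1 and 3 at a mean log2 CPM of 8.17 and 7.78 against at most 6.95 in control. The medians of the habenula and thalamic neuron lists were 0.78 and 0.39. None of these 3 neuron lists had a call by edgeR or DESeq2. At an unadjusted p under 0.05 they had 1 gene higher and 0 lower (all genes 7.55% and 10.2%). Beside these, the summed level of the 74 axonemal members was 458.8 to 592.7 CPM in control and 346.8 to 436.5 CPM in STZ libraries, with no overlap. The part of choroid plexus, oligodendrocyte or neuron content in the fall of the members was not tested. Nor was it tested for the higher level of members in PVT than in pIC. No fit used a neuron score as a covariate. The oligodendrocyte score did not overlap between control and STZ libraries, so the fit with it cannot tell it apart from treatment.

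The libraries of a group varied together in these genes. The mean log2 CPM of the 70 tested axonemal members was 2.45, 2.11, 2.31 and 2.40 in PVT control replicates 1 to 4, and 1.77, 1.69, 1.95, 2.06, 1.84 and 2.01 in STZ replicates 1 to 6. Control replicate 2 and STZ replicate 4 came closest, at 2.11 and 2.06. Control replicate 2 was the lowest control library for 47 of the 70 genes, and STZ replicate 2 the lowest STZ library for 30 of the 70. Control replicate 1, with the highest choroid plexus score (5.77), was the highest control library for 35 of the 70. STZ replicate 5 had the lowest choroid plexus score (3.83) and an axonemal score inside the STZ range. In pIC the axonemal score was −0.23 to −0.01 in control and −0.15 to 0.28 in STZ libraries, which overlap.

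**Figure D5:**
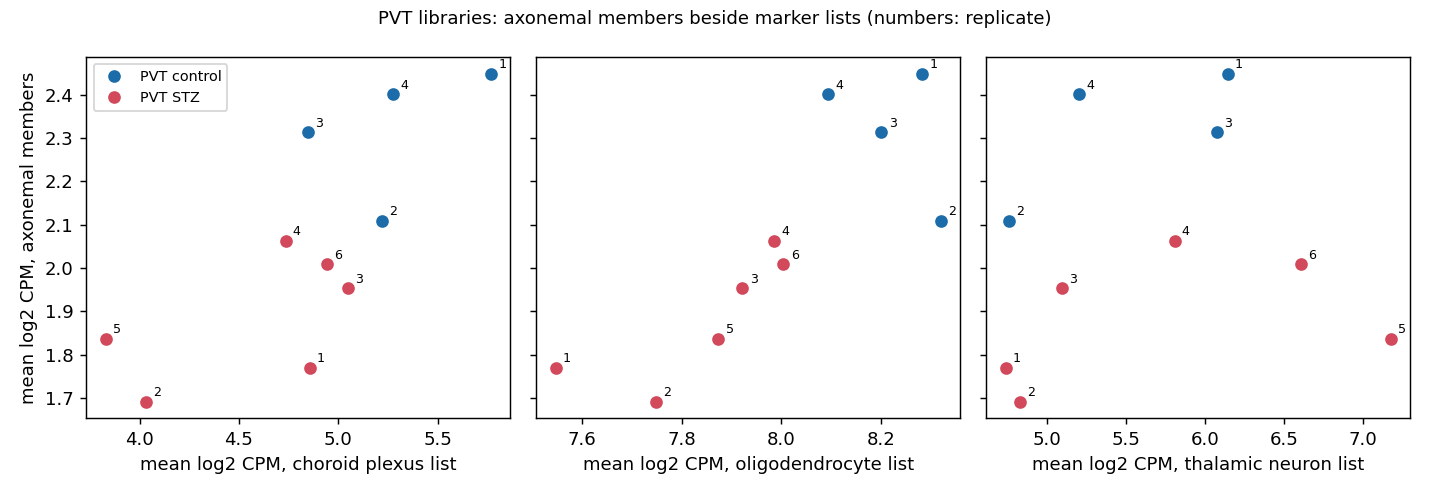
Mean log2 CPM of the axonemal members (vertical) in each PVT library against that of the choroid plexus, oligodendrocyte and thalamic neuron lists (horizontal); points are libraries, numbered by replicate, blue for control and red for STZ. The groups separate on the vertical axis and on that of the oligodendrocyte list (8.094 or more in control, 8.004 or less in STZ), and they overlap on the choroid plexus and thalamic axes.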

How the data were processed

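The authors deposited raw read counts per gene for 57180 identifiers (51884 with a symbol), with 1 column for each of 20 libraries and 0 unused columns. The submitters' processing notes name GRCm39 (mm39). Aligner, counter, strand setting and annotation release are not stated in any source used here. Groups come from the labels. The members, lists and tests were chosen with earlier results of these data known, and 2 noncoding genes with matching symbols were left out.

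All genes were fitted in edgeR 4.0.16 (R 4.3.3). Genes passed filterByExpr at a minimum count of 10 and a total of 15, libraries were scaled by TMM, and the quasi-likelihood test was robust. PVT and pIC were set against each other by glmTreat with 2-fold as the least difference, and the interaction took in all 20 libraries. Adjusted p is Benjamini-Hochberg over every gene tested, and a call is an adjusted p under 0.05. CPM uses TMM over the 20 libraries. Errors of log2 fold changes are standard errors. Levels per kilobase use exon lengths from a mouse annotation of an earlier build. Scores average log2 CPM (prior count 2) over a list. Scripts were tested on simulated data.

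Named genes were Foxj1, Tmem212 and Ccdc153, up to 4 members of smallest p and 1 of largest p per role in PVT, the 5 highest and 3 lowest in PVT against pIC of control mice, the called members (or the 3 of smallest p) in pIC and in the interaction, and up to 4 genes of smallest p in 5 reference lists. All others were chosen after their values were seen. Alternatives were RLE scaling, no filter, DESeq2 1.42.0, a replicate block, 1 fit of all libraries, a test against no change, marker scores as covariates and left-out libraries. The oligodendrocyte covariate and the joint removal of pIC control replicate 4 and STZ replicate 3 were added after seeing the data. At 17.9 M to 25.5 M counts, genes under about 1 CPM rest on few counts.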

Additional observations from a re-analysis of the deposited data

Results flagged for a closer look

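In groups of 4 or 6 libraries, a library was marked when its gap to the nearest other library took up most of the group's range (Dixon's test at the 95% level). Of 200 groups checked, 15 were marked, and chance marks about 5% of groups.

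In PVT, control replicate 1 stood above the other controls for Dnah10 (7.36 CPM, the next at 5.11 CPM), a gene that fell in STZ mice. Control replicate 2 stood below the others for Cfap221 (1.2 CPM, the next at 1.78 CPM). STZ replicate 3 stood below the other STZ libraries for Spag9 (313 CPM against 334 CPM).

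In pIC, STZ replicate 3, the library high in choroid plexus genes, stood above the others for Tmem212 (0.775 CPM) and Cfap126 (0.939 CPM). STZ replicate 4 was marked for Rsph9 (7.09 CPM) and Rsph10b (2.22 CPM), and STZ replicate 5 for Cfap97 (29 CPM). Control replicate 1 was marked for Dnah6 (0.943 CPM), Cfap97d2 (0.404 CPM), Cfap221 (0.0449 CPM) and Rsph14 (0 CPM), and control replicate 2 for Spag4 (2.08 CPM) and Spag17 (0.0483 CPM). Control replicate 3 was marked for Dnaaf6b (0.0491 CPM). The values under 0.1 CPM are 2 counts or fewer. The causes were not tested.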

How the results depend on the processing

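The count of 15 members lower in PVT was 23 with DESeq2, 1 with the choroid plexus score as a covariate and 0 with the oligodendrocyte score. It was 0 without the 2 libraries of each group lowest in thalamus genes and 3 to 14 with 1 library left out. It was 15 with RLE scaling, 14 without a filter and 12 in a fit of all 20 libraries. The median log2 fold change of the members was −0.275 with the choroid plexus covariate. In pIC the count of 1 became 2 in the fit of all libraries, which added Dnah3. Dnah3 was too low to be tested in pIC alone and entered that fit through its PVT level. It had 2 counts over all pIC control and 30 over all pIC STZ libraries. The interaction had 0 members called, and 1 (Tekt4) with DESeq2 and without PVT control replicate 2, so 0 to 1 with 1 library left out. The causes were not tested.

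With the replicate block the PVT count was 2. Control and STZ libraries that share a number did not pair (correlations of their deviations −0.261 to 0.44). Across regions the same mouse label gave −0.087 to 0.211, over 0.1 in 4 of 10 pairs. Pairs with different mouse labels gave −0.188 to 0.238, and a smaller share of them was over 0.1 (0.119, 0.162 and 0.238). Whether the same mouse label marks 1 mouse is stated by no label and was not tested. With that label as the block, 48 members were higher in PVT than pIC of control mice, 40 in STZ mice, and 0 were called for the interaction. The block turned Dnaaf2 (0.036), Drc1 (0.123), Spag5 (−0.017), Spag4 (−0.085) and Spag7 (−0.004).

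Signs also turned under other settings, in PVT unless another region is named. Drc1 was 0 with RLE scaling and 0 with DESeq2. The choroid plexus covariate gave Spag6 −0.521, Dnah8 −0.265, Drc1 0.145 and Spag4 −0.031, and the oligodendrocyte covariate gave Cfap74 0.215, Spag7 −0.057 and Gmnc 0.219. With 1 library left out, ranges were −0.34 to 0.717 for Spag6, −0.104 to 0.023 for Cfap74, −0.061 to 0.363 for Dnah8, −0.143 to 0.002 for Dnaaf2, −0.033 to 0.234 for Spag4, −0.075 to 0.078 for Drc1 and −0.043 to 0.088 for Spag7. Foxj1 in pIC was −0.046 without the 2 libraries that stand apart. Across single genes, 1281 values kept direction and side of the threshold, 166 lost a call, 28 gained one and 35 changed sign. Genes under about 1 CPM, and most pIC values of axonemal members, are limited by their counts.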
